A study of Mus musculus with 2 samples.

Results

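The 308 highest-scoring summits of Sap130 binding in the mouse embryonic heart are described here. They were chosen by their score, as all nuclear summits of at least 150, and make up 2.07% of the 14881 nuclear summits in the authors' list (the list holds 14886, of which 5 are mitochondrial). A summit is the base of a peak at which the ChIP signal was highest. The authors' score is the −log10 of the significance of a peak against input; whether that significance is a p-value or a q-value is not known. Deeper sequencing raises such a score just as stronger enrichment does, and it was used only to rank and select within this list. The other 14573 nuclear summits, all under 150, serve as the comparison.

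The study mapped the targets of Sap130 in hearts of C57BL/6 embryos at stage E12.5 by chromatin immunoprecipitation and sequencing. One group is a single Sap130 ChIP library, made with 2 µg of a rabbit antibody, and the other a single input library of the same tissue, stage and strain, taken without antibody. No mutation, transgene or treatment is given in the labels for either library, and the labels do not say how many embryos were pooled. With 1 library of each kind there are no replicates and no test, and the depth of both libraries is unknown; the intervals given are Wilson 95% intervals and cover counting error only. The hearts hold several cell types, and a peak list carries no expression by which the tissue could be checked.

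Sap130 is a subunit of the Sin3 complex, a scaffold that brings the histone deacetylases Hdac1 and Hdac2 to chromatin. Sin3 itself does not read a DNA sequence and is recruited by sequence-specific factors, among them the Mxd proteins, which pair with Max on the E-box, and factors of the E2F and retinoblastoma network. It is best known as a corepressor, but in many cell types it is also found at active promoters of housekeeping and proliferation genes.

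The promoters of 6 genes are shown first, since they carry the letters by which the promoters at the highest-scoring summits are described further on. They come from the RefSeq promoter table of build GRCm38.p6 and run from 250 bases before to 50 after the annotated start, 5′ to 3′ on the strand of the gene. Capitals mark the E-box CACGTG, the ETS site CCGGAAG, the CCAAT box, the cyclic AMP response element TGACGTCA, the E2F sites TTTCCCGC and TTTGGCGC, the NRF1 site GCGCATGC and the cell cycle genes homology region (CHR) TTTGAA, on either strand. The Mettl1 promoter (chr10:127041682-127041981, plus strand) and the Trmt61a promoter (chr12:111677855-111678154, plus strand) belong to tRNA methyltransferase genes, and their summits lay 115 and 113 bp downstream of the start. The Nol12 promoter (chr15:78934683-78934982, plus strand) belongs to a nucleolar gene with its summit at 111 bp. The Ccnb2 promoter (chr9:70421505-70421804, minus strand) and the Kif15 promoter (chr9:122950831-122951130, plus strand) belong to genes of mitosis, with summits at 91 and 85 bp. The Ranbp1 promoter (chr16:18248645-18248944, minus strand) belongs to a regulator of nuclear transport, with its summit at 181 bp.
Mettl1: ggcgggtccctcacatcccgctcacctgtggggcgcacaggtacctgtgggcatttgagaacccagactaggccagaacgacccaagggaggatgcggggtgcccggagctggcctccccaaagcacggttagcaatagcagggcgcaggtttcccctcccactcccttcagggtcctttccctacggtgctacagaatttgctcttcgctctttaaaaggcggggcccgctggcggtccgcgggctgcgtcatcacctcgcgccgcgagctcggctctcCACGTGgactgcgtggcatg
Trmt61a: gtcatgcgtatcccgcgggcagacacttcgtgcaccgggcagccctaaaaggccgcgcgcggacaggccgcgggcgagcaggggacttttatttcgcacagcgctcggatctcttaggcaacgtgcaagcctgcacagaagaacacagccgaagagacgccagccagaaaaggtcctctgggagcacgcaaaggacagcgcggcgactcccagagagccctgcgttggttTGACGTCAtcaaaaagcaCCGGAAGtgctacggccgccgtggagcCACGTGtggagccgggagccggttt
Nol12: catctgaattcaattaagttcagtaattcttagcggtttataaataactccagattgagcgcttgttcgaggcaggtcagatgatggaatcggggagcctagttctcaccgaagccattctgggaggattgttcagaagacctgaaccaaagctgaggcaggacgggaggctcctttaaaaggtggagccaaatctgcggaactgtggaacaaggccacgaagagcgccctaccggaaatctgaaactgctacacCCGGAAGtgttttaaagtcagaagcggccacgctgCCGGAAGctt
Ccnb2: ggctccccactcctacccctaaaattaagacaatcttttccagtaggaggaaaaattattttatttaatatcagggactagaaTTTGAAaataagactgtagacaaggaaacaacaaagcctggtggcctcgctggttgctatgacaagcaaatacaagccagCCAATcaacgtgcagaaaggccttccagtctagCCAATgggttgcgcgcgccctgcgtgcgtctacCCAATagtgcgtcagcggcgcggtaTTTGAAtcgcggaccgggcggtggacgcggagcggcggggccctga
Kif15: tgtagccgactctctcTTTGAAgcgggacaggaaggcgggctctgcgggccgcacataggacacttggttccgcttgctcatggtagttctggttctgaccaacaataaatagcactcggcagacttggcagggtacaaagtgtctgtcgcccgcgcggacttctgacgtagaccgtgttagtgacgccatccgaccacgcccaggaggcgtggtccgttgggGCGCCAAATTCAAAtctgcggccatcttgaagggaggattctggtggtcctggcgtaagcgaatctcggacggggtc
Ranbp1: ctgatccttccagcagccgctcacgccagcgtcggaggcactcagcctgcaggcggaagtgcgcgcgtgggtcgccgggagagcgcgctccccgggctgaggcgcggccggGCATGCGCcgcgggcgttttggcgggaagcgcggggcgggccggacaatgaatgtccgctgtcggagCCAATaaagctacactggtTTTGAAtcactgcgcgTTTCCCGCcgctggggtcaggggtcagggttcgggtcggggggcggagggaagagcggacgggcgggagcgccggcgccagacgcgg

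Each of the 6 summits lay beyond the last base shown, inside the transcribed part of the gene. Mettl1 held 1 E-box, 30 bp downstream of the start. Trmt61a held a cyclic AMP response element 20 bp before the start, an ETS site 2 bp before it and an E-box 25 bp after it. Nol12 held 2 ETS sites, 5 and 40 bp after the start. Ccnb2 held 3 CCAAT boxes, 87, 54 and 21 bp before the start, and CHRs 167 bp before and 4 bp after it. Ranbp1 held a CCAAT box 72 bp before the start, a CHR 53 bp before it, an E2F site 37 bp before it and an NRF1 site 139 bp before it. In Kif15 the E2F site of the second form and a CHR lay side by side, 27 and 19 bp before the start; a further CHR lay upstream.

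Scores of the 308 summits spanned 150.049 to 427.616. Their median was 172 and their quartiles were 159 and 202. Scores of at least 200 were reached by 80 summits, of at least 250 by 21 and of at least 300 by 7. For the other summits the range was 2.1 to 149.692 and the median 32.2. The threshold fell in a continuous range: just above it stood 150.049 between Dnajc2 and Psmc2 and a tie of 150.271 at Pitpnm2, Ap5z1 and Ptma. The 3 just below it had 149.692 at Kif18b, 149.662 between Traf4 and Nek8, and 149.549 at Cdk9.

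The highest score of the list was at Ncl, which encodes nucleolin, the major RNA-binding protein of the nucleolus. Its summit, at position 86358774 of chromosome 1, scored 427.616 and lay 681 bp inside the gene (86344719 to 86359455). Next came the summit shared by Mettl1, the catalytic subunit that methylates guanosine in tRNA, and Eef1akmt3, a lysine methyltransferase of elongation factor 1 alpha, at 372.206. Trmt61a, the catalytic subunit of the tRNA adenosine methyltransferase, followed at 335.629. Ccne2, a cyclin that drives entry into S phase, scored 315.342, and Nol9, a polynucleotide kinase of ribosomal RNA processing, 315.122. The mitotic cyclin Ccnb2 had 306.298. Of the 30 highest summits, 12 (40.0%) had a gene of the ribosome, tRNA and translation lists in reach, against 2.01% of the summits under 150. A cell cycle gene was in reach of 5 (16.7%), against 2.50%. None had a gene of the heart lists, against 1.30%. The interval for none of 30 reaches up to 11.4%, so that count is not told apart from 1.30%.

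Most of the highest-scoring summits, called members below, stood at promoters. Within 1000 bp of a listed start of a protein-coding gene lay 250 of 308 (81.2%, 76.4 to 85.1%), against 68.0% of the other summits. Within 1000 bp of a boundary of a protein-coding gene lay 267 of 308, which is 86.7% (82.4 to 90.0%), against 73.2% (72.5 to 73.9%) of the other summits. Deeper inside a protein-coding gene were 35 members (11.4%), against 22.1% of the others. Genes of other types held or adjoined 5 (1.62%, against 2.88%), and 1 (0.325%, against 1.77%) was in no gene and at no gene. That one, at position 6410226 of chromosome 7 with a score of 153.732, had the start of Smim17 as the nearest listed one, 4968 bp away.

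A boundary can be the start or the far end of a gene, and the promoter table tells them apart for 17492 of the 21779 protein-coding genes. Where the strand was listed, 224 of 225 members at a gene end stood at the start of at least 1 gene, against 8559 of 8696 of the other summits. The exception was the summit of 158.305 that lay 224 bp beyond the far end of Dvl1, where it meets Tas1r3 tail to tail. Of the 35 members deeper inside genes or the 6 in other places, 27 of 41 were within 1000 bp of a further listed start of a protein-coding gene (65.9%, 50.5 to 78.4%), against 40.2% of such other summits.

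The members sat inside the gene and not on the start itself. Of the 250 within 1000 bp of a listed protein-coding start, 225 (90.0%, 85.7 to 93.1%) were downstream of it, against 81.4% of the other summits near a start. Their median position was 169 bp downstream, between quartiles of 117 and 216 bp, against 179 bp between quartiles of 94 and 249 bp for the others. The medians thus differed by less than the spread in either group, and the members were more narrowly placed: 64.8% (58.7 to 70.5%) lay 100 to 250 bp downstream, against 49.7% (48.7 to 50.7%). Summits of 100 to 150 were placed like the members, with 65.8% (62.5 to 68.8%) in that window and 91.4% downstream.

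**Figure D1:**
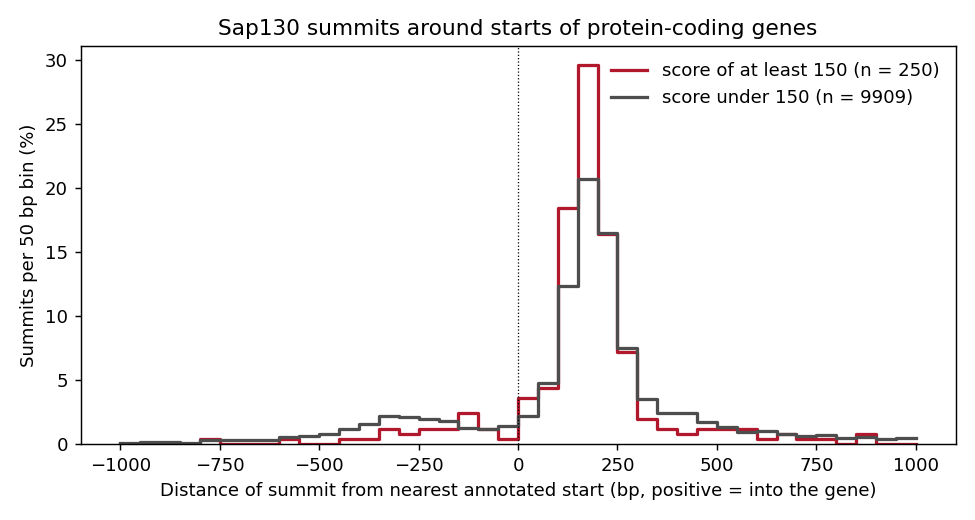
Distance of each summit from the nearest annotated start of a protein-coding gene (horizontal axis, bp, positive into the gene), as the percent of summits in each 50 bp bin (vertical axis), for the 250 members (red) and the 9909 other summits (grey) within 1000 bp of a start. Both lines peak downstream of the start, and the red line is higher between 100 and 200 bp and mostly lower on the upstream side.

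Read by score, most of this change lay below the members' threshold. The share of summits at a gene end was 66.9% under 50, 84.8% from 50 to 100, 87.0% from 100 to 150, 84.6% from 150 to 200 and 92.5% (84.6 to 96.5%) at 200 or more. In position the members were thus close to the summits of 100 to 150, and the lower share over all other summits rested on the many under 50.

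Many members were shared between neighbouring genes. At the ends of 2 or more protein-coding genes lay 68 members (22.1%, 17.8 to 27.0%), against 11.8% (11.3 to 12.4%) of the other summits, and 19.7% of those between 100 and 150. For 51 of the 66 members with exactly 2 such genes both strands were listed, and 41 of these pairs (80.4%) ran head to head from a common promoter, against 78.8% of such pairs at the other summits. Such pairs include Ranbp1 and Trmt2a (282.14), Pigw and Myo19 (237.393), Aimp2 and Pms2 (215.196) and Hspd1 and Hspe1 (166.274). A summit between 2 genes cannot be given to either of them, so for each list whose members are described as a group the number reached through an unshared summit is given.

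Close neighbours were fewer among the members. Another summit lay within 1000 bp of 42 of them (13.6%, 10.2 to 17.9%), against 29.1% of the others, and within 10000 bp of 102 (33.1%, against 48.4%). The share with a neighbour within 1000 bp was 32.8, 22.8, 19.6, 13.6 and 13.8% from the lowest score band to the highest.

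In all, 376 protein-coding genes had a member in reach (within 1000 bp of a boundary, or with the summit inside), which is 1.73% of 21779, and 3.14% of the 11972 with any summit in reach. These shares are the background for the lists below. Since the members were selected on the score, the counts describe which genes the highest scores fell on and are no test of any list. Of the 376 genes, 183 were in at least 1 of the 45 lists and 193 in none. For 145 of the 183, the summit was within 1000 bp of the gene's own listed start. For 5 it was at the far end, next to the start of a neighbour (Aars, Cks2, Atp6v0c and Trappc10) or of none (Dvl1), for 2 the listed start was elsewhere, and for 31 the strand was not listed.

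**Figure D2:**
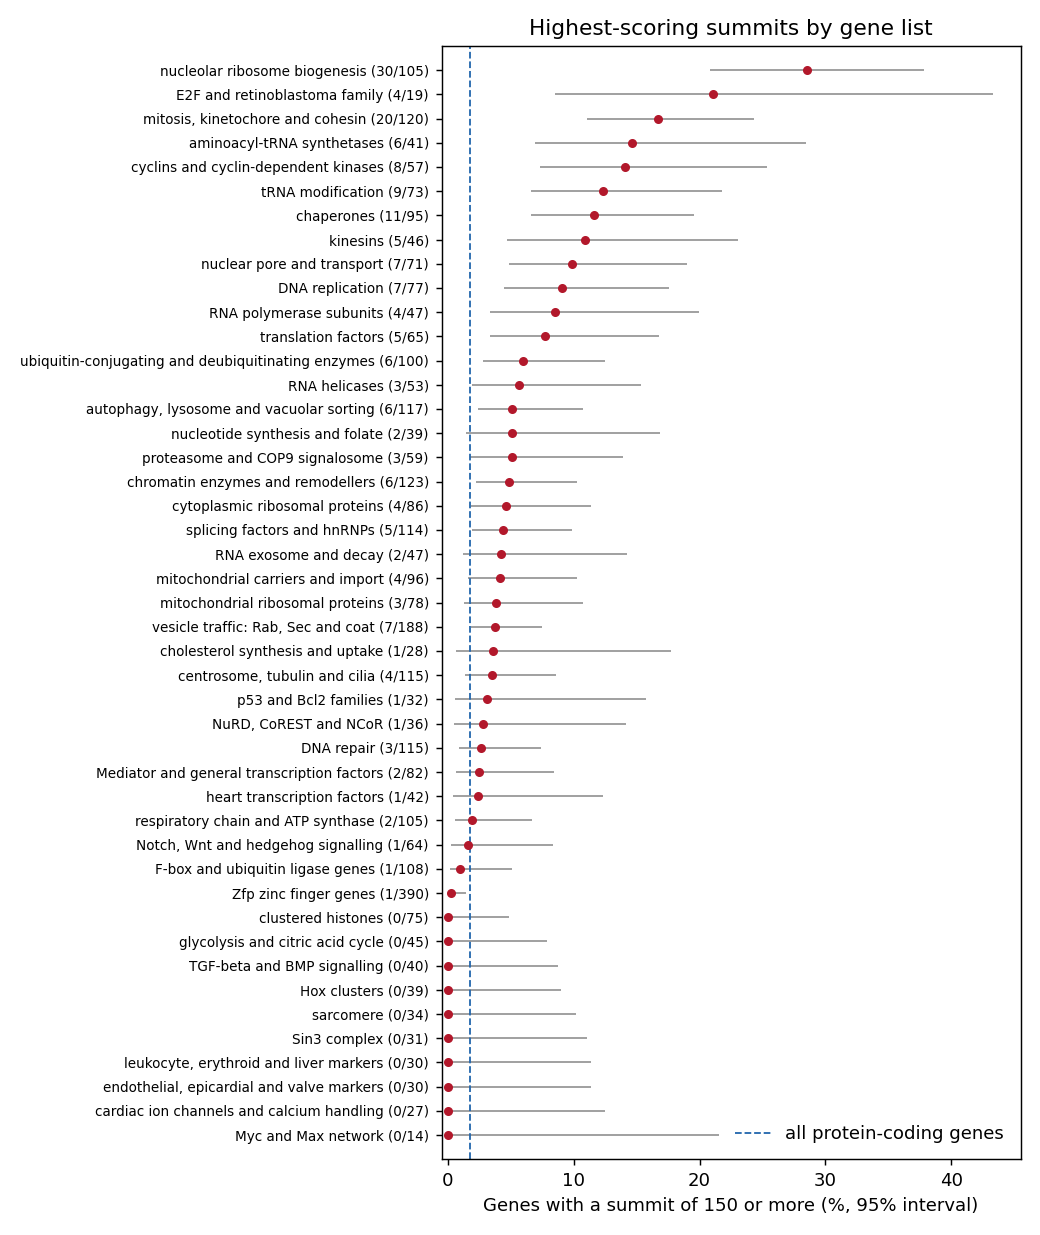
Percent of each list's protein-coding genes with a summit of at least 150 in reach (points, horizontal axis, with Wilson 95% intervals), for all 45 lists (vertical axis, with counts). The dashed line is the share over all protein-coding genes, 1.73%, and the nucleolar list stands at the top with 28.6%.

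Genes of ribosome assembly in the nucleolus led the lists. Of 105 such genes, all with a summit of some height, 30 had a member in reach (28.6%, 20.8 to 37.8%), 19 of them through a summit in reach of no other protein-coding gene. The median highest score over the list was 109, against 48.9 over all protein-coding genes with a summit. After Ncl and Nol9 came Mdn1 at 277.263, a giant ATPase that remodels precursors of the large ribosomal subunit. Gar1, a protein of the H/ACA particles that guide pseudouridylation, had 275.185, Nol12 266.752 and Utp20, a component of the small-subunit processome, 261.655. Ltv1 (248.741) and Rrp12 (234.899), both needed for small-subunit maturation, followed, and so did Npm1 at 229.931, which encodes the nucleolar chaperone nucleophosmin. Ddx21, a nucleolar RNA helicase counted in the helicase list, had 274.565.

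Core proteins of the small nucleolar ribonucleoproteins were also among them. Fibrillarin, the methyltransferase of the box C/D particles, is encoded by Fbl, and 2 member summits 9828 bp apart reached it. The higher, 213.123, lay 438 bp outside Fbl. It was inside Dyrk1b, 224 bp downstream of a listed start of that gene, and the strand of Fbl is not listed. The lower, 193.825, lay inside Fbl, 986 bp from a boundary. Nop56, a core protein of the same particles, had 188.225. Processome and pre-ribosome genes further down were Urb1 (217.088), Heatr1 (208.404), Tsr1 (204.105) and Nop2 (178.841).

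The machinery that makes and modifies tRNA stood beside it. In the tRNA modification list, 9 of 73 genes had a member (12.3%, 6.62 to 21.8%), but only 4 through an unshared summit. Mettl1 and Wdr4 encode both subunits of the tRNA guanosine methyltransferase, and both had members, of 372.206 and 248.17. Trmt2a, a tRNA uridine methyltransferase, shared its summit with Ranbp1 at 282.14. Thg1l, which adds a guanosine to histidine tRNA, had 191.829, Mettl2 186.508 and Nsun2, a cytosine methyltransferase, 177.9. Of 41 aminoacyl-tRNA synthetase genes and their scaffolds, 6 had a member (14.6%), 2 of them, Eef1e1 and Eprs, unshared. They were led by the scaffold genes Aimp2 (215.196, shared with Pms2) and Eef1e1 (205.977) and the synthetase gene Ears2 (202.285, shared with Ubfd1). Aars (195.07) was reached at its far end, next to the start of Exosc6, and Vars (160.459, on a shared summit) and Eprs (152.734) followed.

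RNA polymerase genes with members belonged to the polymerases of ribosomal RNA and tRNA. They were 4 of 47 (8.51%), 3 of them unshared. Polr3d, a subunit of RNA polymerase III, had 263.292, and Mir320 lay 239 bp from the same summit. Gtf3c4, a subunit of a factor that recruits that polymerase, shared a summit of 185.98 with Ddx31. Polr1b, the second-largest subunit of RNA polymerase I, had 165.248, and Taf1a, of its promoter selectivity factor, 154.423.

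Genes of translation itself follow. Among the translation factors, 5 of 65 genes had a member (7.69%, 3.33 to 16.8%), 2 of them unshared; Eef1akmt3 shared the summit of Mettl1, and Eif3b (158.975) and Eif4g1 (154.486) did not share theirs. Of 86 genes of cytoplasmic ribosomal proteins, 4 had one (4.65%), all unshared: Rpsa with 186.964, Rps19 with 174.443, Rpl19 with 158.496 and Rplp1 with 154.636. Of 78 genes of mitochondrial ribosomal proteins, 3 had one (3.85%, 1 unshared), and of 105 respiratory chain and ATP synthase genes, 2 (1.90%, 1 unshared), close to the background of 1.73%.

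The cell cycle formed the other large group. Among cyclins, their kinases and close regulators, 8 of 57 genes had a member (14.0%, 7.29 to 25.3%), 7 of them unshared. Behind Ccne2 and Ccnb2 stood Wee1 with 262.816, the kinase that restrains Cdk1. Ccnb1, the main mitotic cyclin, had 203.412, Ccng2 168.72, Ccna2 156.559 and Cdk1 itself 155.193. Cks2, with 162.553, was reached at its far end, next to Secisbp2.

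In the list of mitosis, kinetochore and cohesin genes, 20 of 120 had a member (16.7%, 11.1 to 24.3%), 14 of them unshared. Fbxo5, which holds back the ubiquitin ligase of anaphase, had 295.652. The checkpoint kinase gene Bub1 had 249.293 and Aurkb, the kinase of the chromosomal passenger complex, 228.364. Cdca2 shared a summit of 215.348 with Kctd9, Esco2, a cohesin acetyltransferase, had 197.947, and Cdca5, which encodes sororin, shared one of 185.724 with Zfpl1. Of 46 kinesin genes, 5 had a member (10.9%), 3 of them unshared, led by the spindle motors Kif15 (209.668) and Kif11 (207.564), with Kif14 (168.396), Kif17 (160.012) and Kif20a (152.551) below.

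DNA replication genes with a member were 7 of 77 (9.09%, 4.47 to 17.6%), 5 of them unshared. Topbp1, a scaffold of replication initiation and the checkpoint, had 219.826. Rrm2, the small subunit of ribonucleotide reductase, had 203.089, and Mcm7, of the replicative helicase, 201.084. Uhrf1 (160.721), Nasp (160.131) and Orc6 (160.119) stood close together. Of the 19 genes of the E2F and retinoblastoma family, 4 had one, 3 of them unshared, and all 4 encode E2F factors: the repressor E2f8 with 209.59, the activators E2f1 with 193.796 and E2f2 with 176.547, and E2f4 with 177.406, whose summit also reached Exoc3l. DNA repair genes had 3 of 115 (2.61%, 1 unshared), near the background.

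**Figure D3:**
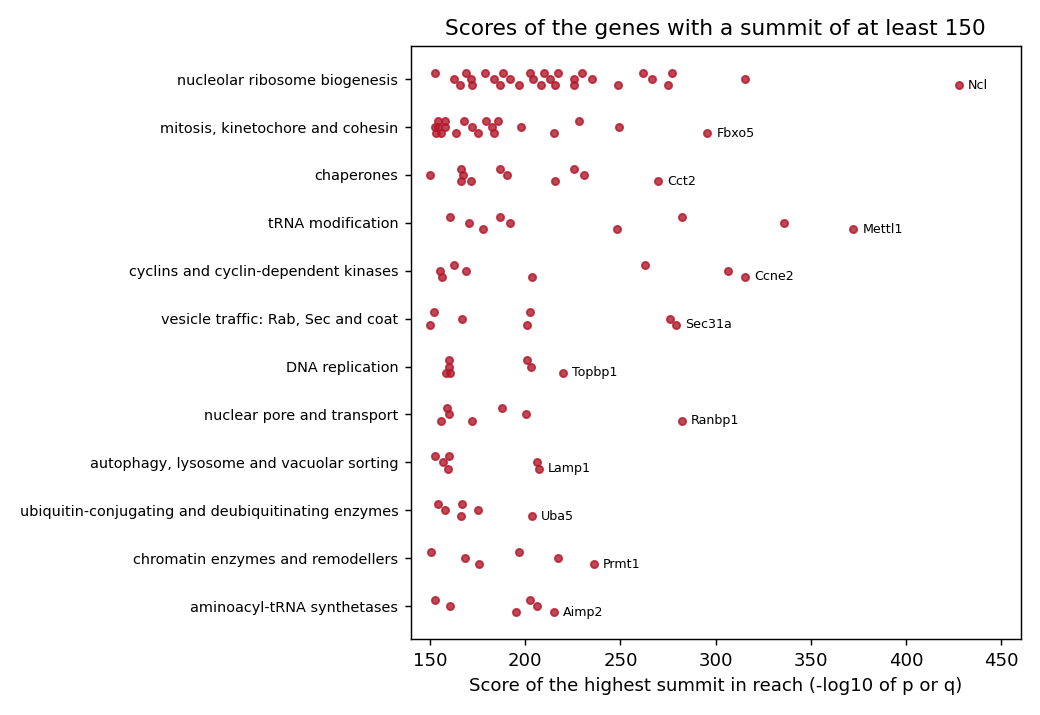
Score of the highest summit in reach (horizontal axis, −log10 of p or q) of each gene with a summit of at least 150, by list (vertical axis, the 12 lists with the most such genes); each point is 1 gene and the vertical scatter within a list has no meaning. The top gene of each list is named, and Ncl stands apart at 427.616.

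Protein folding and nuclear transport came next. Of 95 chaperone genes, 11 had a member (11.6%, 6.59 to 19.6%), 5 of them unshared. Cct2, a subunit of the cytosolic chaperonin, had 269.643. Both cytosolic Hsp90 genes had members, Hsp90ab1 with 230.984 and Hsp90aa1 with 190.617. Hsf1, the transcription factor of the heat shock response, shared 225.808 with the nucleolar gene Bop1, and Pfdn6 shared 215.771 with the nucleolar gene Wdr46. Hspa9, the mitochondrial Hsp70, had 186.817. Of 71 genes of the nuclear pore and transport, 7 had a member (9.86%), 5 of them unshared. Regulators of the Ran cycle were among them: Ranbp1 (282.14), the exchange factor gene Rcc1 (200.299) and the activator of its hydrolysis Rangap1 (160.181). The importin genes Kpna2 (187.859) and Ipo7 (171.938) followed.

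Single high scores stood out in lists with few members. Sec31a, of the outer coat of vesicles that leave the endoplasmic reticulum, had 279.203 and Scfd2 275.998, yet 7 of 188 vesicle traffic genes had a member (3.72%, 4 of them unshared). Psme3, a nuclear activator of the proteasome, had 274.498, with 3 of 59 proteasome and signalosome genes (5.08%, 2 of them unshared). Among chromatin enzymes and remodellers 6 genes had one (4.88%), 5 of them unshared: the arginine methyltransferase gene Prmt1 (235.956), the remodeller genes Ino80 (217.094), Baz1b (175.603), Smarcc1 (168.484) and Srcap (150.401), and Pbrm1 (196.882), whose summit also reached the nucleolar gene Gnl3. Autophagy and lysosome genes had 6 of 117 (5.13%, 4 unshared), led by Lamp1 with 207.135, and splicing factors 5 of 114 (4.39%, 1 unshared), led by Crnkl1 with 180.079.

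Few genes by which a heart is recognised had a member. Of 42 heart transcription factor genes, 1 had a member (2.38%): Foxh1 with 176.233, from a summit it shared with Ppp1r16a. None of 34 sarcomere genes, 27 genes of cardiac ion channels and calcium handling, or 30 endothelial, epicardial and valve genes had one. In lists of this size a count of 0 or 1 is not told apart from the background of 1.73%: the interval for the sarcomere list reaches up to 10.2%. The levels of the scores were low in these lists. The highest score was 77.1 at Pdlim5 in the sarcomere list and 58.3 at Vim in the endothelial, epicardial and valve list. The median highest score was 24.0 over the heart factor genes with a summit and 11.4 over the sarcomere genes with one, against 48.9 over all genes. In the developmental signalling lists, 1 of 64 Notch, Wnt and hedgehog genes (Dvl1, at its far end) and none of 40 TGF-beta and BMP genes had a member. Zinc finger genes named Zfp had 1 of 390 (0.256%), Zfp869 with 176.527.

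The genes of the Sin3 complex itself were not among the members. None of 31 had a score of 150, but the list lay high just below it: Arid4a had 148.298, Sap130 138.077 and Phf12 137.914, and the median was 93.2. In the Myc and Max network, none of 14 genes reached 150 and the highest was Mlxip with 144.886; in glycolysis and the citric acid cycle, none of 45, with Aldoa at 144.749. A score of this kind has no error here, so values this close to 150 are not told apart from it. None of 39 Hox genes or of 75 clustered histone genes (highest 92.6, at H3c3) had one. A summit of any score reached 4 of the Hox genes and 42 of the histone genes. The intervals reach up to 11.0% for the Sin3 complex, 21.5% for the Myc and Max network and 7.87% for glycolysis and the citric acid cycle. For Hox and histone genes they reach 8.97 and 4.87%. None of these counts is thus told apart from the background of 1.73%.

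Lists were then joined into groups, to describe where these stood in each score band. The lists were chosen with earlier results of these data known, and those joined include the ones with the highest shares above. Related lists with low shares were left out: cytoplasmic ribosomal proteins (4.65%), DNA repair (2.61%) and centrosome, tubulin and cilia genes (3.48%). A higher share at high scores thus follows in part from the choice of lists and is no test of the groups. The ribosome, tRNA and translation lists, which join nucleolar ribosome biogenesis, tRNA modification, aminoacyl-tRNA synthetases and translation factors and leave out ribosomal proteins (284 genes), had a gene in reach of 1.11, 2.95, 6.62, 11.0 and 31.3% of the summits under 50, at 50 to 100, at 100 to 150, at 150 to 200 and at 200 or more. For the cell cycle lists, which join cyclins, mitosis, kinesins, DNA replication and the E2F family (319 genes), these shares were 1.77, 3.31, 6.06, 13.2 and 17.5%. Over all members the shares were 16.2% for the first and 14.3% for the second, against 2.01 and 2.50% of the other summits. The heart lists, which join heart transcription factors, sarcomere, ion channels, and endothelial, epicardial and valve genes (132 genes), were at 1.81% of the summits under 50, at 0.331, 0.280 and 0.439% in the bands from 50 to 200 and at none above. Their drop thus lay between the lowest bands, and the share over the members, 0.325% (0.0573 to 1.82%), overlapped that of the others, 1.30% (1.13 to 1.49%). Respiratory chain and mitochondrial ribosome genes, which are also housekeeping genes, were at 1.62% of the members (0.695 to 3.74%), against 1.40% of the others. For the ribosome, tRNA and translation lists the bands next to 150 overlapped, with intervals of 5.28 to 8.27% at 100 to 150 and 7.54 to 15.7% at 150 to 200, while that at 200 or more, 22.2 to 42.1%, lay above both.

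**Figure D4:**
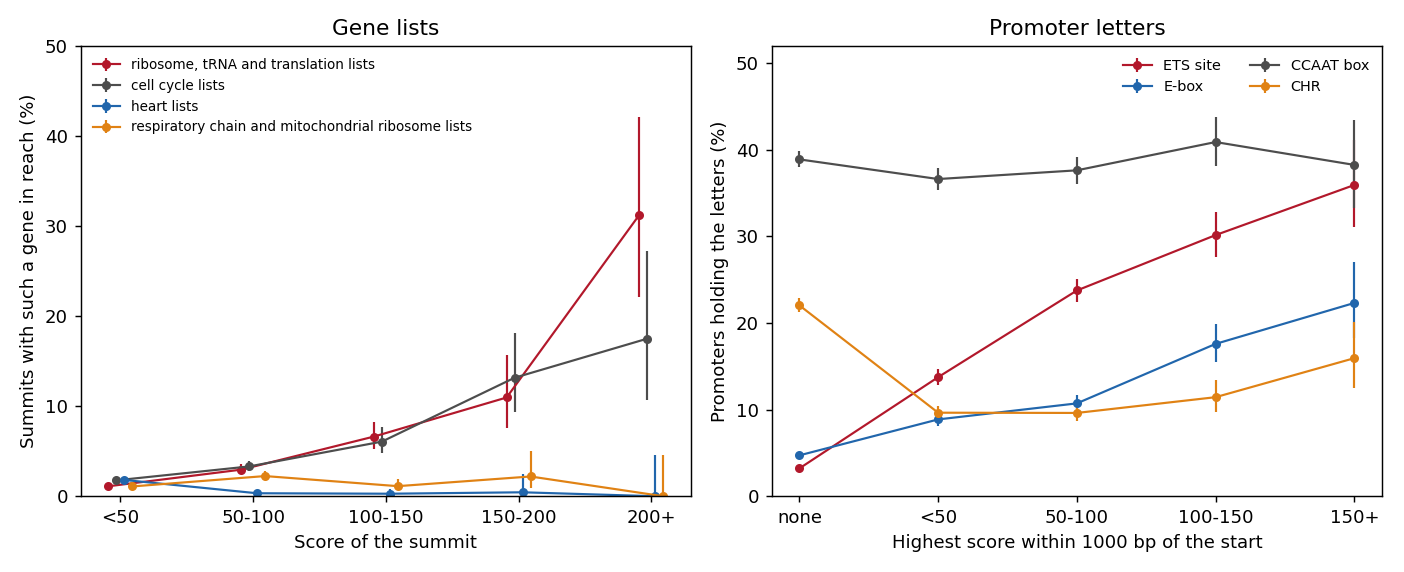
Left, percent of summits with a gene of the named lists in reach (vertical axis) by score of the summit (horizontal axis). Right, percent of promoters of 300 bases that hold the letters of each motif (vertical axis) by highest score within 1000 bp of the start (horizontal axis). Bars are Wilson 95% intervals. The ribosome, tRNA and translation lists reach 31.3% at 200 or more, while the heart lists stay at 1.81% or less; on the right the ETS site and the E-box are higher in each successive band, with overlapping bars in the last pair, and the CCAAT box stays between 36.6 and 40.9%.

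Of the 193 genes in no list, those within the 30 highest summits were Crebrf (296.392), a regulator of the endoplasmic reticulum stress response, Tma16 (241.655), Pigw and Myo19, which shared 237.393, and the transcription factor genes Pou2f1 (234.685) and Nr1d2 (233.389). Others below them are known from the same processes as the leading lists; these were picked after their values were seen and are no count. Grwd1 (222.054), Utp25 (223.582), Mybbp1a (191.307) and Pum3 (185.701) encode nucleolar or ribosome assembly proteins. Set (228.734) encodes a histone chaperone, and Srm (223.882) the spermidine synthase. Pprc1 (204.488), a coactivator related to PGC-1, and Cluh (201.85), which binds messenger RNAs of mitochondrial proteins, serve mitochondria.

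Of the 12 highest-scoring members away from gene boundaries, most stood at a start inside the gene. Wdr4 (248.17) lay 7812 bp from a boundary but 314 bp downstream of a listed start. The same held for Set (877 bp), Ino80 (588 bp), Wdr62 (182 bp), Larp4 (290 bp), Mtfr2 (44 bp), Rcc1l (167 bp) and Phc2 (211 bp), and the summit of Synj1 lay 125 bp upstream of one. At Npm1 the summit lay 1661 bp inside the gene. The other summits of the group were in long non-coding RNA genes, Gm31068 on chromosome 5 (312.587, at position 142367616, 1946 bp from the nearest listed start) and Gm31585 on chromosome 2 (186.624, 891 bp from the nearest listed start).

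Non-coding genes in reach differed by type. Long non-coding RNA genes were in reach of 37 of 308 members (12.01%), against 2397 of 14573 other summits (16.45%). Small nucleolar RNA genes were in reach of 4 members (1.30%, against 0.350% of the others), a higher share but a small count. MicroRNA genes were in reach of 3 (0.974%, against 1.02%) and tRNA genes of 2 (0.649%, against 0.817%). No intervals were computed for these shares. The small nucleolar RNA genes include Snord110, near the summit of Nop56, and Snora26, 186 bp from a summit of 160.718.

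Member genes were of middling length. The median was 16910.5 bp over the 376 genes with a member, 25633 bp over genes with lower summits only and 9452 bp over genes with none. By chromosome, the share of summits that were members was highest on chromosome 17 (22 of 687, 3.20%, 2.12 to 4.80%), followed by chromosome 9 (2.93%) and chromosome 10 (2.88%). On the X chromosome it was 1 of 420 (0.238%, 0.0420 to 1.34%), the lowest, below the share of 2.07% over all nuclear chromosomes.

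Promoters at the members were then compared by their letters, which the score did not use. The 345 listed protein-coding starts with a member within 1000 bp, of 296 genes, were set beside 10370 with lower summits only and 10548 with none. A summit counted for every start in its reach, and neighbouring and overlapping promoters share letters, so starts are not independent. Promoters at summits were on the whole richer in CpG than those without, with a median of 26 CpG in 300 bases at the members, 23 at the lower summits and 4 at starts without a summit. The G and C content had a median of 63.3, 63.0 and 49.0% in the same order, so the members differed little from the lower summits in composition.

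The ETS site CCGGAAG was in 124 of the 345 (35.9%, 31.1 to 41.1%), against 19.2% of promoters with lower summits, 3.21% of those without and 11.6% of all 21263. The E-box CACGTG, which reads the same on both strands, was in 77 (22.3%, 18.2 to 27.0%), against 10.5, 4.72 and 7.84%. The E-box was in 8.87% of promoters under 50, 10.7% from 50 to 100 and 17.6% from 100 to 150, and the ETS site in 13.7, 23.8 and 30.2%. Both shares were thus higher with each band of score, but the step from 100 to 150 to the members lay within overlapping intervals: 15.5 to 19.9% at 100 to 150 for the E-box and 27.6 to 32.9% for the ETS site. CpG-rich promoters hold more letters of this kind, so the counts were repeated in promoters with at least 20 CpG, a comparison chosen after seeing the data. There the E-box was in 20.7% (16.2 to 26.0%) of the member promoters, against 11.0% with lower summits and 15.6% (13.1 to 18.4%) with none, and the ETS site in 38.3% (32.6 to 44.3%), against 20.9 and 7.57% in the same order. The E-box share of member promoters thus overlapped that of CpG-rich promoters without a summit.

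Where the letters lay was set beside all promoters, which include those without a summit. The 97 E-boxes in member promoters had a median position 36 bp before the start, against 73 bp before it in all promoters. Their quartiles overlapped, at -120 and 9 bp from the start against -149 and -22 bp. The 66 CHR matches had a median of 70 bp before the start, against 129 bp, and their quartiles also overlapped. Letters with fewer matches differed as well. The medians were 111.5 and 54 bp before the start for the NRF1 site, 187 and 106 bp for the TATA box TATAAA and 20 and 51 bp for TGACGTCA. For the YY1 site AAGATGG they were 4 and 75 bp. For the ETS site the medians were 40 and 38 bp before the start. These medians lay upstream of the start, on the other side of it from most summits. The median score of member promoters was 179 with the E-box and 171 without it, and 172 with the ETS site and 173 without it. At a threshold of 200, though, the E-box was in 32.2% (23.3 to 42.6%) of member promoters. That interval lies above the 15.5 to 19.9% at scores of 100 to 150. For the ETS site the share at a threshold of 200 was 37.9% (28.5 to 48.4%).

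Most other letters were near their level at lower summits, but the CHR, the core TGACG and the letters TCTCGCGAG were higher at the members. The GC box GGGCGG was in 75.1% of member promoters and 71.3% of those with lower summits, against 20.6% of those without. The NRF1 site GCGCATGC was in 7.54 and 6.09%, the cyclic AMP response element TGACGTCA in 3.19 and 3.57%, and the E2F site TTTCCCGC in 3.77 and 2.29%. The core TGACG, which the response element contains, was in 42.0% (36.9 to 47.3%) and 34.0% (33.1 to 34.9%), and in 42.2% of promoters from 100 to 150. TCTCGCGAG was in 4.06% (2.43 to 6.70%) of member promoters, 1.70% (1.47 to 1.96%) at lower summits and 3.12% from 100 to 150. The CCAAT box was in 38.3% (33.3 to 43.5%) of member promoters, 37.5% at lower summits and 38.9% without a summit. CHR letters TTTGAA were in 15.9, 9.84 and 22.0%. From 100 to 150 they were in 11.4% (9.73 to 13.4%), which overlapped the interval of the members. In promoters with at least 20 CpG they were in 16.1% (12.1 to 21.0%) at the members and 6.69% at lower summits. Of such promoters without a summit 6.86% (5.21 to 8.97%) held them, so their higher share without a summit was not seen in CpG-rich promoters. The GATA letters AGATAA, read by a factor family of the heart, were in 5.51% of member promoters, 4.58% at lower summits and 14.8% without a summit, and the TATA box TATAAA in 5.51, 5.36 and 19.9%. In promoters with at least 20 CpG these shares were 2.68, 2.46 and 2.86% for the GATA letters and 3.07, 3.50 and 5.43% for the TATA box. The MEF2 core TATTTATA, read by another factor family of heart and muscle, was in 5 member promoters (1.45%, 0.621 to 3.35%), against 0.579% (0.450 to 0.744%) at lower summits and 2.57% without a summit. With at least 20 CpG it was in 0.766, 0.404 and 0.571% in the same order.

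The letters were also counted within the leading groups of genes. This comparison was chosen after seeing the data, and it sets member promoters of a group beside the other promoters of the same lists. In the ribosome, tRNA and translation lists, the E-box was in 13 of 42 member promoters (31.0%, 19.1 to 46.0%), against 17.1% (12.8 to 22.5%) of the 228 others, with overlapping intervals. The ETS site was in 20 of 42 (47.6%, 33.4 to 62.3%), against 33.8% (27.9 to 40.1%), which also overlap. The CHR letters were in 3 of 42 (7.14%), against 14.0%, and the CCAAT box in 31.0%, against 33.8%.

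In the cell cycle lists other letters stood out. The CCAAT box was in 28 of 38 member promoters (73.7%, 58.0 to 85.0%), against 50.9% (45.0 to 56.9%) of the 265 others. The CHR letters were in 18 of 38 (47.4%, 32.5 to 62.7%), against 26.0% (21.1 to 31.6%), as in the Ccnb2, Kif15 and Ranbp1 promoters shown above, of which Ranbp1 is in the transport list. The E-box was in 3 of 38 (7.89%, 2.72 to 20.8%), against 10.6%, the ETS site in 18.4%, against 24.5%, and the E2F site TTTCCCGC in 3 of 38 (7.89%), against 8.68%. The difference between the groups of lists was not tested. A match of letters is a description of the sequence and not a binding site, and no other factor was measured.

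**Figure D5:**
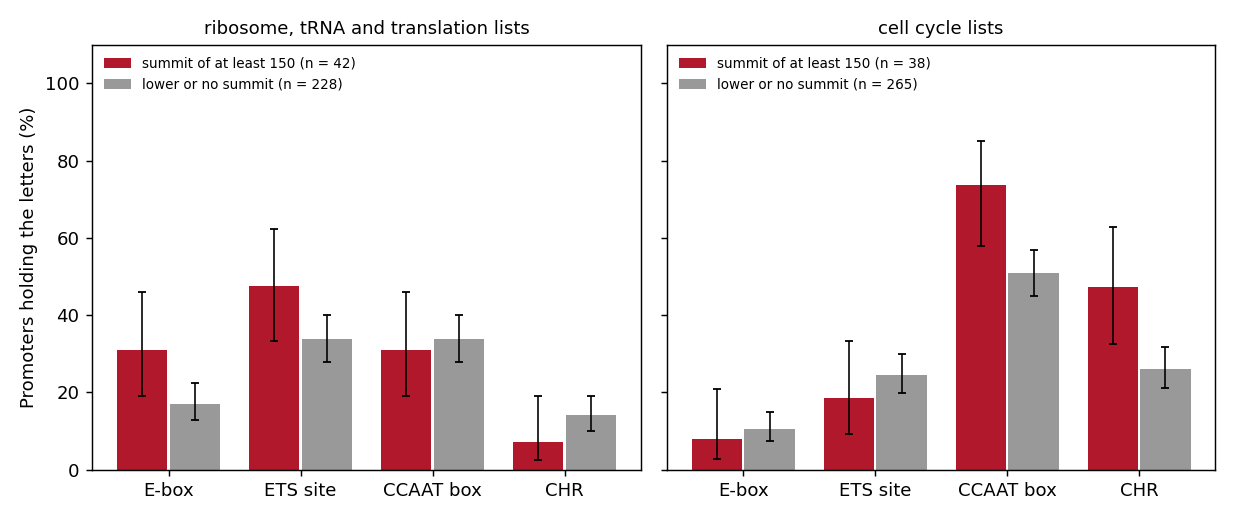
Percent of promoters that hold each motif (vertical axis), for promoters with a summit of at least 150 within 1000 bp (red) and the other promoters of the same lists (grey), in the ribosome, tRNA and translation lists (left, n = 42 and 228) and in the cell cycle lists (right, n = 38 and 265). Error bars are Wilson 95% intervals. Red bars exceed grey ones by the most for the E-box (31.0 against 17.1%) and the ETS site on the left, with overlapping error bars, and for the CCAAT box and CHR (47.4 against 26.0%) on the right.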

How the data were processed

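One Sap130 ChIP library and 1 input library from E12.5 mouse hearts were measured, and 1 peak list was deposited. Per the submitters' processing notes, the tools were Bowtie 1.1.2 and MACS2 2.1.0.20140616, with build GRCm38 (mm10); how they were run is not given in the sources used here. Summits of 1 base, 14886 in all, were deposited by the authors with a score, taken as a −log10 significance (p-value or q-value). A higher depth raises such a score, and read counts were not used here.

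From these values, summits of at least 150 were kept and assigned to RefSeq GRCm38.p6 genes. Of 49997 genes, 394 (mitochondrial, unplaced or on scaffolds) were left out. Starts, strand and sequence came from the RefSeq promoter table of the same build, which lists a start for 17492 of the 21779 protein-coding genes used. Motifs were exact letters on either strand, and a summit counted for every start within 1000 bp. Genes of 45 lists (3368 genes, 2 symbols unmatched) were counted. The members, lists and motifs were chosen with earlier results of these data known. Genes named are those at the 30 highest summits, up to 6 per list, 12 members off gene boundaries and 3 summits on each side of 150; other genes, such as further members of a list, were picked after their values were seen. Shares carry Wilson 95% intervals, which cover counting error only. No test was run, since each kind has 1 library. Alternatives were thresholds of 200 and 100, windows of 500 and 2500 bp, merging of summits within 500 bp and leaving out shared summits; for promoters, the nearest start only was added after seeing the data. The assignment was tested on simulated data. Python 3.11.15 was used with pandas 2.3.3, numpy 2.4.6, matplotlib 3.10.9 and scipy 1.17.1. Some single-gene results are not reported here.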

Additional observations from a re-analysis of the deposited data

How the results depend on the processing

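Of 81 values under the other settings, 56 moved by less than their interval and 25 by more. The share of members at gene ends was 92.5% at a threshold of 200, 76.3% with a window of 500 bp and 92.5% with 2500 bp. Within 500 bp of a listed start lay 76.3%. Members at 2 or more gene ends were 15.9% with 500 bp and 30.8% with 2500 bp. The nucleolar ribosome biogenesis list had 17.1% of its genes at a threshold of 200 (80 summits, background 0.445% of genes), 58.1% at 100 (1380 summits, background 7.52%) and 18.1% when summits in reach of 2 or more genes were left out (227 summits, background 1.04%), by construction of smaller or larger sets. At 200 and at 100 the shares were 3.33 and 41.7% for mitosis, 7.02 and 28.1% for cyclins, 5.48 and 32.9% for tRNA modification and 4.21 and 29.5% for chaperones; without shared summits tRNA modification had 5.48% and chaperones 5.26%. The share of member promoters with the E-box was 32.2% at a threshold of 200. With each summit given to its nearest start only, a setting added after seeing the data, it was 23.6%, and that with the ETS site 35.6%. Merging summits within 500 bp changed none of the values recomputed. It keeps the highest summit of each chain, and all 308 members remained, so these values could not move. They are counted among the 56. The share in reach of 2 or more genes has no value when such summits are left out. No paired analysis was possible because there is 1 ChIP library and 1 input library, and no library can be left out for the same reason. Depth is unknown and limits all scores; peak widths, reads and the sequence under the summits were not used here, so motifs describe promoter windows that most summits lie outside of.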

Other observations

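Genes of some other functions also had members, each named after its value was seen. For each list counted in this paragraph the interval of the share includes the background of 1.73%. Among regulators of cell death, Bax, which permeabilises the outer mitochondrial membrane, had 168.531. It was 1 of 32 genes of the p53 and Bcl2 families (3.13%, 0.554 to 15.7%). Of 96 genes of mitochondrial carriers and import, 4 had a member (4.17%, 1.63 to 10.2%), led by Timm13 (207.735), whose summit also reached Lmnb2. Scap, the sensor that escorts sterol-regulated factors, had 160.181 as 1 of 28 genes of cholesterol synthesis and uptake (3.57%, 0.633 to 17.7%). Gatad2a, a subunit of the NuRD deacetylase complex, was the 1 gene of 36 in the list of other corepressor complexes with a member (2.78%, 0.492 to 14.2%). It had a pair of them, of 175.561 and 151.079, 21993 bp apart. Hgs, of endosomal sorting, was also reached by 2 summits. That of 211.002, shared with Arl16, lay 214 bp downstream of a listed Hgs start. That of 162.479, shared with Mrpl12, lay beyond the far end of Hgs, 162 bp downstream of the Mrpl12 start.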
